A study of Mus musculus with 4 samples.

Results

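The extracellular matrix genes described here are the collagen chains, a set of matrix glycoproteins and proteoglycans, the matrix metalloproteases (Mmp), their tissue inhibitors (Timp) and the Adam and Adamts proteases. Members were picked by a rule on gene symbols, from probe sets that the platform's gene table pairs with 1 symbol. They came to 102 probe sets for 74 genes, of 12422 probe sets on the array outside controls. RNA was total RNA from mouse skeletal muscle on 4 arrays, coded J on 2 (replicates 1a and 1c) and NJ on 2 (replicates 1a and 1d). All 4 titles carry Ctr and a time of 0 h, and the series title names the neuromuscular junction, where motor nerve meets muscle fibre. The labels do not spell out J or NJ, and give neither strain, age nor number of animals, so the codes are used as given and the spread between arrays may be technical.

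Fibrillar collagens form the tensile fibres between muscle fibres, while network-forming collagen IV and the collagens XV and XVIII belong to the basement membrane that ensheathes each muscle fibre and passes through the synaptic cleft. Fibroblasts of the connective tissue make most of the fibrillar matrix. Metalloproteases cut matrix and cell-surface proteins, and Timp proteins inhibit them.

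Of 17 probe sets for 11 skeletal muscle fibre genes 15 were bright enough to test, and Myh2 and 1 of 2 probe sets for Mb were too dim. Acta1, the actin of the muscle sarcomere, had signals of 207533 and 32990 in J versus 123803 and 87672 in NJ. The summed signal of the 17 was 1322605 on J 1a and 244090 on J 1c, against 1007710 on NJ 1a and 724790 on NJ 1d, so J 1c stood apart at the bright end. In the deposited table the 1a arrays carry full digits, while J 1c and NJ 1d have 1 decimal. Each number format thus holds 1 J and 1 NJ array, and differences within each format are given beside the pooled ones. In matrix probe sets, 23 of 72 (31.9%) had both 1a arrays above the other 2, against 23.2% of all probe sets tested. Both were below at 8 (11.1%), against 22.6%.

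Signals below are the deposited linear values, in the order 1a, 1c for J and 1a, 1d for NJ. Differences are J minus NJ of log2(signal + 32) after quantile normalisation, with the limma standard error, over 2 arrays a group. On this scale the change of dim genes is understated, and quantile normalisation can change the order of arrays at the bright end. Of the 102 probe sets 72 were bright enough to test, for 57 genes, and 30 were too dim. Every gene of the fibrillar, Timp and glycoprotein classes had a tested probe set. The 17 genes with none were 7 Mmp genes (Mmp3, Mmp7, Mmp8, Mmp10, Mmp13, Mmp16 and Mmp24), 6 in the Adam class (Adam2, Adam4, Adam7, Adam8, Adam19 and Adamdec1), Adamts1, and the collagen chains Col4a3, Col4a4 and Col22a1. Fbn1, fibrillin 1, is in the rule but had no probe set here.

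Matrix transcripts were higher in J more often than lower, but none passed the test. In limma with Benjamini-Hochberg adjustment over 9316 probe sets, 0 matrix probe sets passed at 0.05, where 0% of all passed, and the smallest adjusted p was 0.9998. By the mean, 47 of 72 were higher in J, which is 65.3% against 49.2% of all probe sets, and 25 were lower. Their median difference was 0.29, against −0.01 for all, and 0.20 over all 102 when the filter on dim probe sets was left off. At an unadjusted limma p under 0.05 there were 4 of 72, where 2.13% of all were: 3 higher (1.25% of all) and 1 lower (0.88% of all). Both J arrays were above both NJ arrays at 16 of the 72 (22.2%, against 13.6% of all) and below them at 4 (5.56%, against 12.9%). On the deposited signals without normalisation these counts were 14 of 72, against 1333 of 9316 for all probe sets (14.3%). Below were 3 of 72, against 1116 of 9316 (12%). With 2 arrays a group, the smallest two-sided p of an exact permutation test is 0.333.

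Much of this excess came from array J 1a, the one with the highest value for 39 of 72 matrix probe sets (54.2%, against 30.8% of all). Without J 1a the median was 0.05, with 38 higher and 34 lower, and without NJ 1d it was 0.15, with 41 and 31. Leaving out J 1c gave 0.53, with 52 and 20, and leaving out NJ 1a gave 0.34, with 51 and 21. Between the 1a arrays 50 of 72 were higher in J, against 4630 of 9316 for all (49.7%), with a median of 0.46. Between J 1c and NJ 1d 46 of 72 were higher, against 4718 of 9316 for all (50.6%), with a median of 0.18. In both pairs 31 were higher (43.1%, against 24.9% of all) and 7 were lower (9.72%, against 24.5%).

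**Figure D1:**
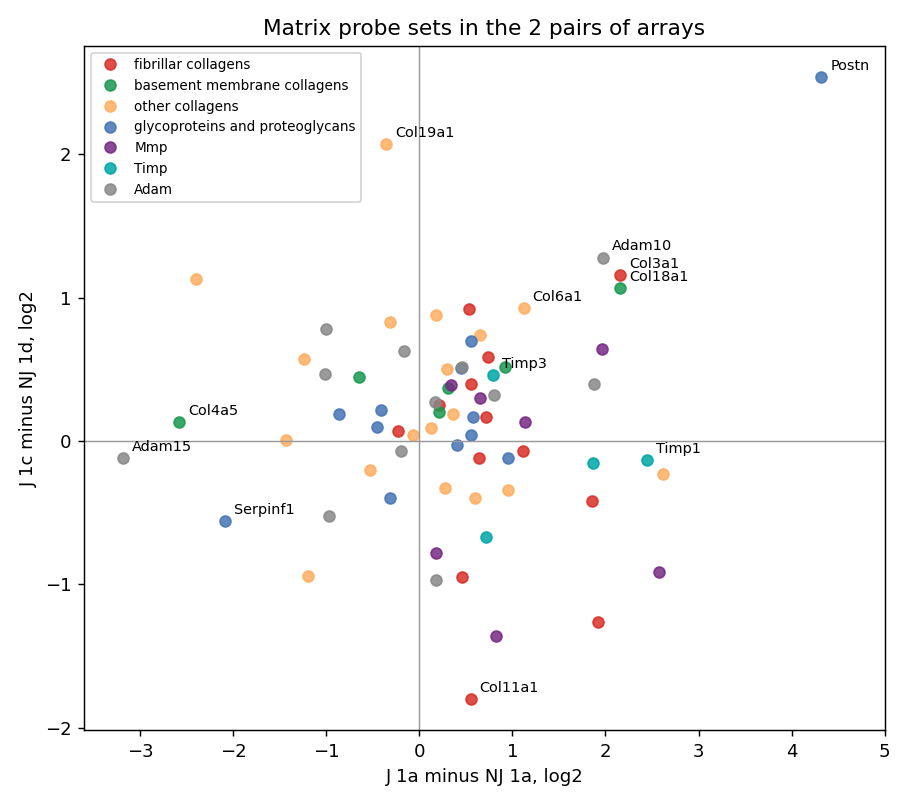
Each point is 1 of the 72 matrix probe sets tested, placed by its log2 difference between J 1a and NJ 1a (horizontal) and between J 1c and NJ 1d (vertical), and coloured by class. The upper right field holds 31 probe sets, Postn farthest out, and the lower left holds 7, among them Serpinf1 (162429_r_at) and Adam15.

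The 3 collagen classes were all higher in J by the median. Of 13 fibrillar probe sets 10 were higher in J and 3 lower (median difference 0.45). Of 6 basement membrane collagen probe sets 4 were higher and 2 lower (median 0.27), and of 18 for the other collagens 11 were higher and 7 lower (median 0.18). The glycoproteins and proteoglycans had 7 higher and 5 lower (median 0.24), Mmp 5 and 2 (0.47), Timp 4 and 0 (0.74) and Adam 6 and 6 (0.05). Without J 1a these medians were 0.20 for fibrillar, 0.11 for basement membrane and −0.07 for other collagens, 0.05 for glycoproteins and proteoglycans, 0.07 for Mmp, 0.21 for Timp and −0.20 for Adam. Without NJ 1d the basement membrane median was 0.09, that of the other collagens −0.07, that of the glycoproteins and proteoglycans −0.03 and that of Adam −0.28. Leaving out J 1c gave 0.81 for fibrillar collagens, 0.64 for glycoproteins and proteoglycans and 0.90 for Mmp. With the brightest probe set for each gene the fibrillar median was 0.28, near the 0.26 of the other collagens, and over all 16 Mmp probe sets, dim ones included, the Mmp median was 0.08. The class median varied between arrays of a group with an SD of 0.36 for fibrillar, 0.23 for basement membrane and 0.19 for other collagens. This SD was 0.28 for glycoproteins and proteoglycans, 0.49 for Mmp, 0.45 for Timp and 0.25 for Adam. No difference between classes was tested, since the smallest exact permutation p for 2 arrays a group is 0.333.

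The arrays that were high or low are given for each class as a description. Each probe set was centred on its mean over the 4 arrays and the median taken over the class. The fibrillar class stood at 0.58 and −0.14 in J versus −0.09 and −0.15 in NJ. Only J 1a was high for it, with 12 of 13 probe sets higher for the 1a pair but 7 of 13 for the other pair. The basement membrane class stood at 0.18 and 0.01 in J versus 0.04 and −0.40 in NJ. There the low array was NJ 1d, with 4 of 6 higher for the 1a pair and 6 of 6 for the other pair. The other collagens, at 0.22 and 0.08 in J versus 0.03 and −0.31 in NJ, did not overlap on this measure, by 0.08 on J 1c versus 0.03 on NJ 1a, which is within the SD of 0.19 between arrays of a group. The Timp class stood at 0.68 and −0.09 in J versus −0.42 and 0.05 in NJ, and the Mmp class at 0.62 and −0.35 in J versus −0.13 and 0.02 in NJ. For Timp, 4 of 4 probe sets were higher for the 1a pair (median 1.33) but 1 of 4 for the other pair (median −0.14).

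**Figure D2:**
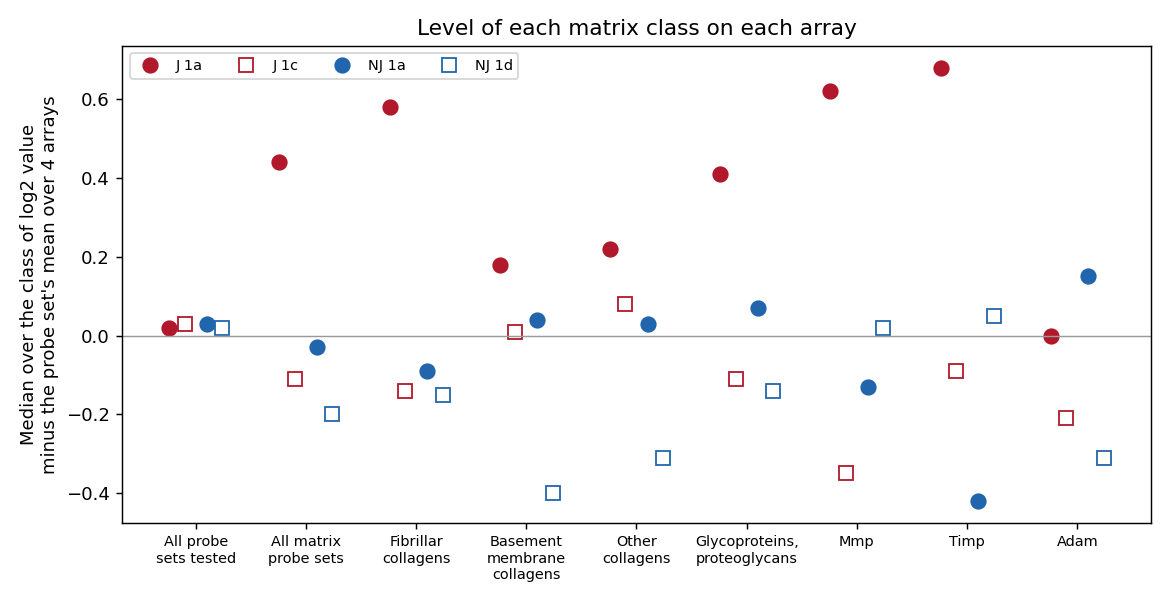
Median over each class of the log2 value minus the probe set's mean over the 4 arrays, 1 point per array, with J in red left of NJ in blue and filled circles for the 1a arrays. J 1a is the highest array for every class but Adam, while J 1c lies below both NJ arrays for the Mmp class.

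Postn encodes periostin, a secreted protein that binds collagen and integrins, and it had the largest difference of any member. Its signals were 1311 and 700 in J versus 43.3 and 75.2 in NJ. Both J arrays were far above both NJ arrays, where the signals were as low as those of probe sets too dim to test, so Postn passed the filter through J. The log2 difference was 3.43 ± 0.81, with 4.32 for the 1a pair and 2.54 for the other pair. Its size depended on the constant added before the log, at 4.06 with 1 added and 2.71 with 100 added, in place of 32. It ranked 6 of 9316 by unadjusted limma p (0.00195) and stayed between 3.01 and 3.85 with each array left out. With a term for the number format in limma, which leaves 1 residual degree of freedom, its adjusted p was 0.0939, the smallest of the members. That fit called 8 of 9316 probe sets (0.0859%) and 0 members.

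Col6a1, a chain of the microfibrillar collagen VI that lies next to the basement membrane, was the collagen with the smallest limma p (0.0267). It had signals of 3546 and 2975 in J versus 1645 and 1433 in NJ. It differed by 1.02 ± 0.39, or 2.03-fold. The groups were well apart, and the difference was alike in the pairs, at 1.12 and 0.93. A dimmer probe set, 162459_f_at, had 89.4 and 969 in J versus 72.4 and 462 in NJ and split the arrays by number format.

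Collagen VI is assembled from 3 different chains, of which Col6a2 is the neighbour of Col6a1 in the RefSeq gene table. Col6a2 had 998 and 530 in J versus 904 and 471 in NJ, a difference of 0.11 ± 0.60, and its groups overlapped. Col6a3 had 1979 and 3022 in J versus 1612 and 2046 in NJ, a difference of 0.40 ± 0.40. Its deposited signals overlapped between groups, while its normalised values did not.

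Col18a1, whose C-terminal fragment is endostatin, had the largest difference among basement membrane collagens, at probe set 99638_at. Signals were 1216 and 789 in J versus 276 and 310 in NJ, and the difference was 1.61 ± 0.64, or 3.06-fold (limma unadjusted p = 0.0315). Both J arrays were above both NJ arrays. The other tested probe set, 101880_at, had 331 and 278 in J versus 494 and 178 in NJ and differed by −0.10 ± 0.77, so the 2 probe sets of this gene disagree. Its remaining 3 probe sets were too dim to test.

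Serpinf1, pigment epithelium-derived factor, a secreted serpin that binds collagen, was the member lowest in J by limma p (0.044), at probe set 162429_r_at. It had 426 and 653 in J versus 1656 and 973 in NJ, a difference of −1.33 ± 0.57, or a J over NJ ratio of 0.399. Both J arrays were below both NJ arrays there. The second probe set, 93574_at, had 986 and 543 in J versus 510 and 568 in NJ and differed by 0.42 ± 0.60, with only J 1a high.

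**Figure D3:**
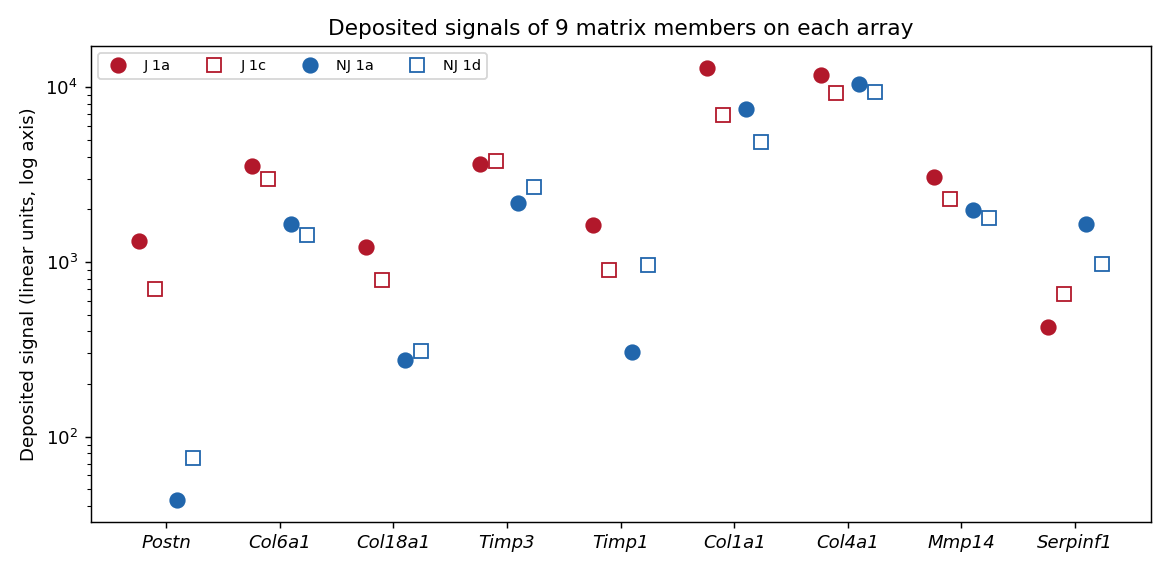
Deposited linear signals on a log axis for 9 members on the 4 arrays, J in red left of NJ in blue. Each gene is shown at its tested probe set with the smallest p. Postn, Col6a1 (95493_at), Col18a1 (99638_at), Timp3 and Mmp14 have both J arrays above both NJ arrays. Serpinf1 (162429_r_at) has both below, and Timp1, Col1a1 (103709_at) and Col4a1 overlap. The other tested probe sets of Col6a1, Col18a1 and Serpinf1, not drawn, overlap.

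The stretches just before the transcription starts of these 4 genes, the members with an unadjusted p under 0.05, are shown because these had the smallest p among the members, although none passed after adjustment and other members differed by more than Col6a1. They are RefSeq windows of the build GRCm38.p6, the 150 bases before the start, read 5′ to 3′ on the gene's strand. Capitals mark matches on either strand to the TATA box TATAAA, the CCAAT box CCAAT, the GC box GGGCGG or the site TGANTCA of the factor AP-1. Postn and Col18a1 have a second annotated start each, which held no match.
Postn, chr3:54360957-54361106, plus strand: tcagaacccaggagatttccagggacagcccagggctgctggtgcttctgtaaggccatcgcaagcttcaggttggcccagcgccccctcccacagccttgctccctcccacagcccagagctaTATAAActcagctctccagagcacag
Col6a1, chr10:76726045-76726194, minus strand: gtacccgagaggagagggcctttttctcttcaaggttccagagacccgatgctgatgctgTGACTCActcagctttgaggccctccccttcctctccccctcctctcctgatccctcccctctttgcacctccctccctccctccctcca
Col18a1, chr10:77166531-77166680, minus strand: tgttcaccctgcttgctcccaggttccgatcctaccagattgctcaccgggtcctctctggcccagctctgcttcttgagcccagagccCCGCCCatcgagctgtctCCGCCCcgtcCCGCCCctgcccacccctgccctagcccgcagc
Serpinf1, chr11:75422624-75422773, minus strand: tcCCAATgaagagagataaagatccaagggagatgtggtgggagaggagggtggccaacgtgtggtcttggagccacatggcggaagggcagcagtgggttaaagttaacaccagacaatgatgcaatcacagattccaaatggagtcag

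Each of the 4 genes held a different motif. Postn had a TATA box that begins 26 bases before the start, Col6a1 an AP-1 site 90 bases before, Col18a1 3 GC boxes, and Serpinf1 a CCAAT box 148 bases before. Windows were found for 48 of the 74 member genes, 57 windows in all. A TATA box occurred in 17.5% of the member windows against 7.57% of all promoter windows, a CCAAT box in 21.1% against 24.5%, a GC box in 42.1% against 28.6% and an AP-1 site in 12.3% against 4.24%. These shares describe letters in a window and carry no test. Of the 7 member windows with an AP-1 site, 5 were of Mmp genes, 1 was that of Col6a1 and 1 that of Adam19.

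Among fibrillar collagens, chains of collagen I, the main collagen of connective tissue, were higher in J by the mean at all 4 probe sets. Col1a1 had 12986 and 6916 in J versus 7563 and 4852 in NJ at its brighter probe set, 103709_at, a difference of 0.67 ± 0.45. The groups overlapped there, since J 1c lay below NJ 1a, although J was higher within each pair. At 94305_at it had 2054 and 535 in J versus 585 and 717 in NJ, a difference of 0.72 ± 0.67 that came from J 1a (1.86 for the 1a pair, −0.42 for the other). Col1a2, the partner chain of the collagen I trimer, had 4962 and 4148 in J versus 3577 and 2105 in NJ at 101130_at, a difference of 0.72 ± 0.41, and its groups did not overlap. It was higher in J within each pair, by 0.53 and 0.92. Its second probe set, 161156_r_at, had 6143 and 6775 in J versus 5495 and 6130 in NJ and differed by 0.23 ± 0.34.

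Col3a1, the single chain of collagen III, gave 3 different answers at 3 probe sets. At 98331_at it had 3919 and 1406 in J versus 2959 and 2735 in NJ, a difference of −0.25 ± 0.53, with J 1c the lowest array. At 161984_f_at it had 2114 and 1451 in J versus 1008 and 1440 in NJ, a difference of 0.52 ± 0.46. At 102990_at, the dimmest, it had 433 and 126 in J versus 74.3 and 32.7 in NJ, a difference of 1.66 ± 0.79, the largest of the fibrillar class. The NJ signals there were as low as those of probe sets too dim to test, so 102990_at passed the filter through J. Its difference was 1.16 with 100 added before the log. Which probe set follows the transcript best was not tested.

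Collagen V chains, which nucleate collagen I fibrils, had differences within their standard errors. Col5a1 had 1964 and 1484 in J versus 2315 and 1325 in NJ at 93472_at, a difference of −0.08 ± 0.45, and 179 and 410 in J versus 101 and 427 in NJ at 101080_at, a difference of 0.26 ± 0.95. Col5a2, the neighbour of Col3a1 in the RefSeq table, had 1008 and 545 in J versus 611 and 453 in NJ, a difference of 0.45 ± 0.60. All 3 probe sets overlapped between groups. The cartilage chains ranged more widely, from Col11a1 at −0.62 to Col2a1 at 0.48, and Col11a1 and Col11a2 each had opposite signs in the 2 pairs of arrays.

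In the basement membrane class, the chains of the common collagen IV network had differences within their standard errors. Col4a1 had 11740 and 9272 in J versus 10463 and 9354 in NJ, a difference of 0.20 ± 0.37. Col4a2, its neighbour on the chromosome and its partner in the trimer, had 4693 and 4331 in J versus 3939 and 3366 in NJ, a difference of 0.34 ± 0.36. After quantile normalisation both were slightly higher in J in each pair of arrays. The pairs gave 0.21 and 0.20 for Col4a1 and 0.31 and 0.37 for Col4a2, and only Col4a2 did not overlap between groups. The deposited Col4a1 signal, however, was lower on J 1c than on NJ 1d. The Col4a1 difference was 0.08 without normalisation and 0.01 when each array was centred on its median.

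Col4a5, a chain of a second collagen IV network that muscle keeps at the synapse, had 93.5 and 50.2 in J versus 638 and 36.5 in NJ. The difference of −1.22 ± 1.01 thus came from NJ 1a alone, and was 0.27 without it. Col4a3 and Col4a4, the other chains of that network on the array, were too dim to test, with signals from 33.9 to 65.0. Col15a1, a collagen that links the basement membrane to the fibrils outside it, had 930 and 1394 in J versus 493 and 890 in NJ, a difference of 0.72 ± 0.56. Its deposited signals did not overlap between groups, but its normalised values did.

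Among the remaining collagens, Col12a1, a fibril-associated collagen, had 619 and 146 in J versus 79.2 and 162 in NJ at 92314_at, a difference of 1.20 ± 0.89 carried by J 1a. Its other probe set, 92313_at, had 263 and 68.3 in J versus 377 and 73.6 in NJ and differed by −0.37 ± 0.88. Col17a1, a transmembrane collagen best known from skin, had the lowest difference of the class at −1.07 ± 0.91, with 89.4 and 266 in J versus 236 and 548 in NJ. The 11 probe sets of this class not given above ranged from −0.71 (Col10a1) to 0.86 (Col19a1), and all of them overlapped between groups. Col19a1 was low on NJ 1d alone, at 56.7, against 391 to 494 on the other arrays.

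**Figure D4:**
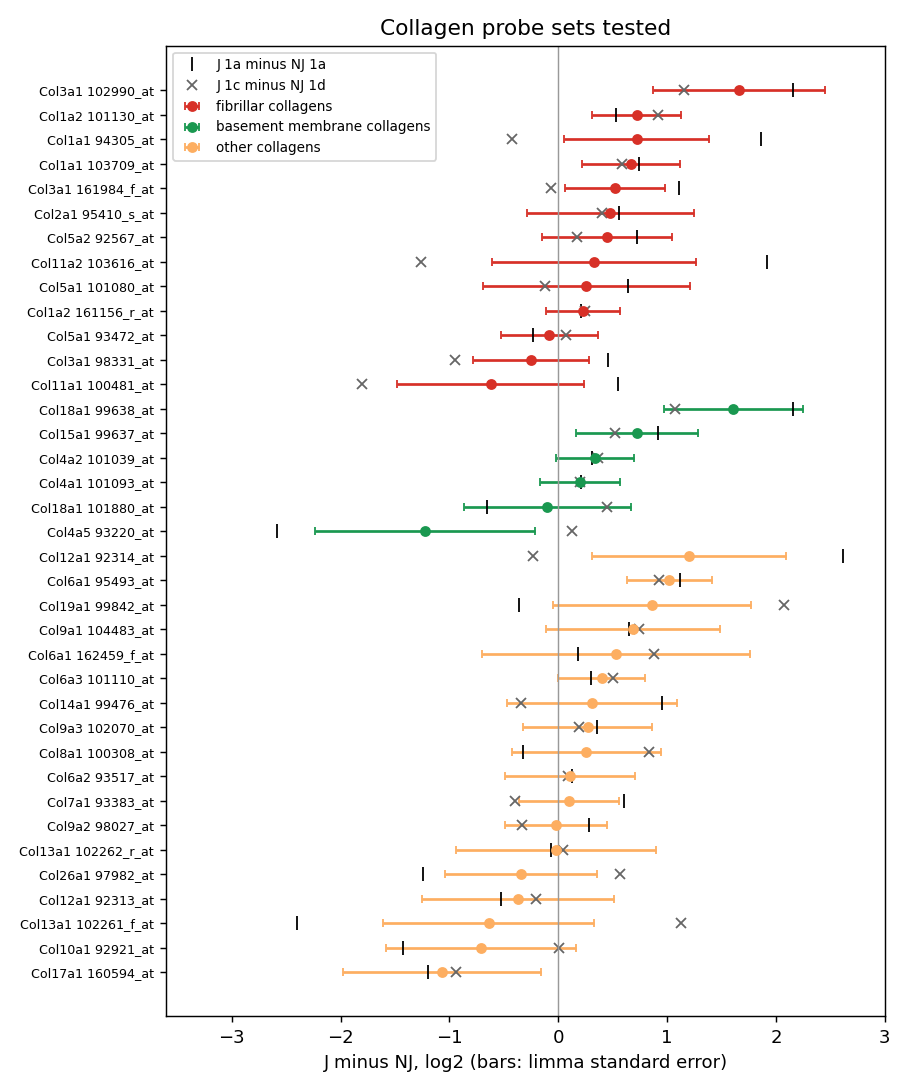
Differences of J minus NJ on the log2 scale for the 37 collagen probe sets tested, grouped by class, with limma standard errors as bars, a vertical mark for J 1a minus NJ 1a and a cross for J 1c minus NJ 1d. In Col4a1, Col4a2, Col6a1 (95493_at) and Col1a1 (103709_at) the pairs lie close together, whereas Col4a5, Col13a1 (102261_f_at), Col12a1 (92314_at) and Col11a2 have pairs of opposite sign.

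Dcn, decorin, a small proteoglycan that coats collagen fibrils, had 82874 and 25304 in J versus 42425 and 36133 in NJ. The deposited signals overlapped, with J 1a the highest array and J 1c the lowest. After quantile normalisation both J values were above both NJ values and the difference was 0.63 ± 0.45, while on the deposited scale it was 0.23. Lum, lumican, a related proteoglycan and the neighbour of Dcn, had 1024 and 1423 in J versus 1363 and 1235 in NJ, a difference of −0.17 ± 0.45. Bgn, biglycan, had 1093 and 2762 in J versus 1925 and 2352 in NJ at 96049_at and 1679 and 2388 in J versus 2217 and 1969 in NJ at 162347_f_at. Its differences were −0.33 ± 0.49 and −0.10 ± 0.40, both with overlapping groups.

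The glycoproteins of fibrils and basement membranes had differences within their standard errors. Fn1, fibronectin, had 1891 and 1084 in J versus 1268 and 911 in NJ, a difference of 0.37 ± 0.49. Sparc, a protein that binds collagen and is found in basement membranes, had 1717 and 1079 in J versus 1290 and 1050 in NJ, a difference of 0.19 ± 0.47. Fbln2, fibulin 2, had 12304 and 5134 in J versus 8146 and 5157 in NJ, a difference of 0.30 ± 0.50, with J 1a the high array. Fbln1, fibulin 1, had opposite signs at its 2 tested probe sets. They were 883 and 890 in J versus 1070 and 1146 in NJ at 94308_at (−0.35 ± 0.47, groups apart) and 1502 and 981 in J versus 1078 and 630 in NJ at 94309_g_at (0.48 ± 0.51, groups overlapping), and its remaining 2 probe sets were too dim.

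Of the metalloproteases, Mmp14, a membrane-bound collagenase that activates Mmp2, had 3076 and 2299 in J versus 1992 and 1780 in NJ, a difference of 0.47 ± 0.40. Mmp2, gelatinase A, had 243 and 117 in J versus 89.5 and 95.4 in NJ, a difference of 0.64 ± 0.76. Both had J above NJ on all arrays, but the NJ signals of Mmp2 were as low as those of probe sets too dim to test. Mmp2 thus passed the filter through J. Its second probe set, 161509_at, had 44.8 and 273 in J versus 71.1 and 162 in NJ, which overlap, and was too dim to test. Mmp12, the macrophage elastase, disagreed between probe sets, with 362 and 302 in J versus 70.1 and 164 in NJ at 95339_r_at (1.30 ± 0.82) and 537 and 96.9 in J versus 293 and 284 in NJ at 95338_s_at (−0.27 ± 0.87).

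Mmp17, a glycolipid-anchored protease, had 545 and 134 in J versus 68.1 and 266 in NJ, a difference of 0.83 ± 0.95 with opposite signs in the pairs. Mmp11, stromelysin 3, had 635 and 229 in J versus 485 and 154 in NJ, a difference of 0.37 ± 0.81, and both 1a arrays were above the others. Mmp9, gelatinase B, had 221 and 53.3 in J versus 187 and 106 in NJ, a difference of −0.30 ± 0.79. All 7 tested Mmp probe sets were higher in J for the 1a pair, and 4 of 7 for the other pair.

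An AP-1 site was found within the 150 bases before the start in 5 of 11 Mmp windows (45.5%, against 4.24% of all promoters), each of a different gene, and 1 of 25 collagen windows. Binding of AP-1 to such sites is known to drive these genes in stimulated cells. The 5 genes lie near each other on chromosome 9, and 4 of them, all but Mmp12, were too dim to test in this muscle. Their last 90 bases before the start (GRCm38.p6, all on the plus strand) are shown to compare the site, in capitals.
Mmp3, chr9:7445732-7445821: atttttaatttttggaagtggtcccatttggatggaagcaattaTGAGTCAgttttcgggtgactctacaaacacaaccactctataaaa
Mmp7, chr9:7692000-7692089: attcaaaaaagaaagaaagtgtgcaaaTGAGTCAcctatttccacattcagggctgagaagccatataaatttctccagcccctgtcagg
Mmp10, chr9:7502252-7502341: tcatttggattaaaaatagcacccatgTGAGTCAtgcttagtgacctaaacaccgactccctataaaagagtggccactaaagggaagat
Mmp12, chr9:7347284-7347373: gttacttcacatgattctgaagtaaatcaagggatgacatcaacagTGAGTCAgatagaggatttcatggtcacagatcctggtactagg
Mmp13, chr9:7272424-7272513: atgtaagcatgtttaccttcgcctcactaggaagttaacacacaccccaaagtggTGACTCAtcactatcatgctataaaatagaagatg

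The site read TGAGTCA in 4 of the 5 and TGACTCA, its reverse complement, in Mmp13. Signals of the 4 dim genes ran from 24.5 to 90.7 for Mmp3, 33.7 to 134 for Mmp7, 18.3 to 49.1 for Mmp10 and 7.7 to 223 for Mmp13. On the normalised scale J was above NJ for Mmp7 and below it for Mmp10, and the groups overlapped for Mmp3 and Mmp13.

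Timp3, the inhibitor that binds to the matrix, had 3645 and 3775 in J versus 2176 and 2694 in NJ. Both J arrays were above both NJ arrays, and the difference of 0.63 ± 0.36 was 0.79 and 0.46 in the pairs. Timp1, a soluble inhibitor, had 1622 and 901 in J versus 306 and 957 in NJ and so was low on NJ 1a alone, with a difference of 1.16 ± 0.68 that was 0.29 without that array. Timp2 had 834 and 149 in J versus 228 and 156 in NJ at 93507_at (0.86 ± 0.89, carried by J 1a) and 230 and 94.5 in J versus 121 and 156 in NJ at 160116_at (0.03 ± 0.78).

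Adam10, a protease that sheds Notch and other surface proteins, had the smallest p of its class, with 411 and 232 in J versus 82.0 and 68.2 in NJ at 100751_at, differing by 1.62 ± 0.76 on the log2 scale. NJ was as low there as probe sets too dim to test, and the difference was 1.97 with 1 added before the log and 1.19 with 100 added. The groups were apart there, while at 97947_at, which had 135 and 489 in J versus 85.8 and 297 in NJ, they overlapped. Adam12, meltrin alpha, linked to the fusion of muscle precursors, had 433 and 83.7 in J versus 95.0 and 47.6 in NJ, a difference of 1.14 ± 0.84 with overlapping deposited signals. On every array but J 1a it was as low as probe sets too dim to test, so Adam12 passed the filter through J 1a. Without that array its difference was 0.28. Adam15 had 69.0 and 54.2 in J versus 787 and 53.2 in NJ, so that its difference of −1.65 ± 1.01 rests on NJ 1a and was −0.18 without it. Adam9 had 470 and 469 in J versus 874 and 678 in NJ, a difference of −0.75 ± 0.59 with the groups apart.

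Adam3 and Adam5, proteins of sperm, each had 1 probe set that was tested and 1 too dim. The tested ones had differences within their standard errors. Signals were 1323 and 1184 in J versus 1477 and 1181 in NJ for Adam3 (−0.13 ± 0.44). For Adam5 they were 16225 and 15156 in J versus 13814 and 17314 in NJ (0.22 ± 0.38, and −0.04 with each array centred on its median). Whether these 2 probe sets, both of the type with the suffix _r_at, measure their named genes in muscle was not tested.

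Of 14 member genes with several tested probe sets, 7 had probe sets of opposite sign: Col3a1, Col5a1, Col12a1, Col18a1, Fbln1, Mmp12 and Serpinf1. The other 7 had 1 sign, among them Col1a1, Col1a2, Col6a1 and Adam10 higher in J and Bgn lower. With the brightest probe set standing for each gene the median was 0.27, and with the mean of a gene's probe sets it was 0.31.

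Collagen processing genes, a list that covers both the making and the breakdown of collagen, were near level by the median. The list held hydroxylases, chaperones, crosslinking enzymes, procollagen proteinases, export proteins, collagen receptors and degrading proteases. Of 33 gene symbols listed, 22 had a probe set and 21 a tested one. Over 24 tested probe sets 14 were higher in J and 10 lower (median 0.04), and 0 passed limma, with 0 at an unadjusted p under 0.05. The median was −0.14 without J 1c and 0.27 without NJ 1d. Serpinh1, the collagen chaperone HSP47, had 1315 and 398 in J versus 98.9 and 367 in NJ, a difference of 1.76 ± 0.90. Fap, a fibroblast surface protease that the fibroblast list below also holds, had 421 and 276 in J versus 59.4 and 143 in NJ, a difference of 1.53 ± 0.82. In the other direction Sec31a, a coat protein of vesicles leaving the endoplasmic reticulum, had 302 and 1028 in J versus 985 and 1091 in NJ, a difference of −0.97 ± 0.68. Bmp1, the procollagen C-proteinase, had 138 and 688 in J versus 655 and 561 in NJ, a difference of −0.99 ± 0.86. For the 1a pair and the other pair the differences were 3.51 and 0.01 for Serpinh1 and 2.34 and 0.71 for Fap. They were −1.79 and −0.14 for Sec31a and −2.18 and 0.20 for Bmp1.

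Markers of fibroblasts that are no members were also higher in J by the mean more often than lower. All 13 probe sets of 9 such genes were tested, and 9 were higher in J and 4 lower (median 0.37, 0 passing limma). Both J arrays were above both NJ arrays at 3 of the 13 (23.1%, against 13.6% of all), those of Fap, Thy1 and Vim. They were below at 2 (15.4%, against 12.9%), S100a4 (−1.01) and Cd34 at 97773_at (−1.17, but −0.05 at its other probe set). The summed signal of the 13 was 7029 and 7077 in J versus 5130 and 5017 in NJ. The summed signal of the 44 collagen probe sets was 72230 and 55280 in J versus 53917 and 46084 in NJ. J was above NJ on both sums. The largest signals in the fibroblast sum on J 1c were those of Pdgfra at 95079_at and Mfap5 at 99518_at. Pdgfra had 305 and 1832 in J versus 419 and 232 in NJ there, and Mfap5 had 716 and 1720 in J versus 804 and 1210 in NJ. The remaining probe sets of Pdgfra differed by 0.34 and −0.03, with overlapping normalised values. The sum over all 102 members was 216231 and 127132 in J versus 144718 and 127245 in NJ, with J 1c the lowest array. Centred on each probe set's mean, the fibroblast median was 0.46 and 0.02 in J versus −0.29 and 0.03 in NJ, which overlap. None of these markers was at 0, and their part in the matrix differences was not tested. In RNA of whole tissue, fewer cells of a type and less RNA per cell cannot be told apart.

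Markers of other cells that make matrix were mixed. Smooth muscle and pericyte genes were higher in J by the mean at 6 of 6 probe sets (median 0.47), with sums of 6737 and 4519 in J versus 6493 and 2226 in NJ. For the 1a pair their median was 0.03, with 3 of 6 higher in J. For the other pair it was 0.77, with 5 of 6 higher, and NJ 1d was the lowest array at 4 of 6. Tendon genes were represented by 3 probe sets, with Fmod, fibromodulin, at 2.31 and 1.06 and Scx, a tendon transcription factor, at −0.68. At its brighter probe set Fmod had 3690 and 1188 in J versus 176 and 990 in NJ. It was low on NJ 1a alone, with 4.43 for the 1a pair and 0.18 for the other pair, and ranged from 1.06 to 3.48 with 1 array left out. Macrophage and other immune genes had 3 of 7 higher (median −0.37), and endothelial genes had 3 of 6 (median 0.01). Schwann cell genes were lower in J by the mean at 6 of 6 tested probe sets (median −0.40). Their median was −0.87 for the 1a pair, with 0 of 6 higher in J, and −0.06 for the other pair, with 3 of 6 higher, and NJ 1a was the highest array at 5 of 6. Of 4 adipocyte probe sets 1 was higher and 3 lower (median −0.69), and the genes disagreed. Adipoq was the higher one, with 1295 and 1132 in J versus 335 and 246 in NJ, a difference of 1.90 ± 0.59. The lower ones were Lpl at −0.97 and −1.19 and Fabp4 at −0.42.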

How the data were processed

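The deposited table holds 1 linear intensity per probe set and array. Which software made it is not given in the sources used here. With 2% trimmed from either end, column means lay between 800.5 and 800.6, so the deposited intensities had been scaled to a common level. Of 12488 probe sets 66 were controls and were left out. Of the others 10833 had 1 gene symbol in the platform's gene table, 396 several and 1193 none. All 74 member symbols had an entry in the RefSeq table of GRCm38.p6. The number of arrays, 2 a group, limits the precision.

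Column medians of log2(intensity + 32) ranged from 8.29 to 8.67, so arrays were quantile normalised, and probe sets with a mean above the 25th percentile were tested (9316). The test of J minus NJ used limma 3.58.1 under R 4.3.3, lmFit followed by eBayes with a trend on mean intensity and 2 residual degrees of freedom, and Benjamini-Hochberg adjustment over all of them. The code was tested on simulated data. Figures were drawn with matplotlib 3.10.9.

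Members, classes and lists were chosen with earlier results of these data known, so lists are described by counts and medians only. Fibrillar collagens are types I, II, III, V, XI, XXIV and XXVII, and basement membrane collagens types IV, XV and XVIII. Named are, per class, the 3 members with the smallest p and the 2 with the highest mean, every tested chain of collagens I, III, IV, V, VI, XV and XVIII, all tested Timp and glycoprotein members, and genes with probe sets of opposite sign; of the processing genes, the 2 per direction with the smallest p. Mmp2, Mmp9, Adam9, the second Adam10 probe set, Col2a1, Col10a1, Col11a1, Col11a2, Col13a1, Col19a1, Acta1 and the dim Mmp genes were named after their values were seen, as were the promoter motifs. The same holds for the cell type markers Fmod, Scx, Pdgfra, Mfap5, Thy1, Vim, Cd34, S100a4, Adipoq, Lpl and Fabp4. Alternatives were the deposited scale, median centring, pseudocounts of 1 and 100, other filters, no intensity trend, a number-format term, each array left out, and 1 value per gene.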

Additional observations from a re-analysis of the deposited data

How the results depend on the processing

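The labels pair no arrays beyond 1a, which alone occurs in both groups. The number-format term takes J 1a with NJ 1a and J 1c with NJ 1d and so acts as a block of 2 pairs. No matrix probe set and no collagen processing gene passed limma under any alternative. Over all probe sets the number-format term gave 8 calls, and each other setting gave 0. The median over matrix probe sets lay between 0.20 and 0.32 under the other scales, pseudocounts and filters. The Adam median changed sign to −0.02 without a filter, −0.06 with median centring, −0.11 with 1 value per gene and −0.13 with the filter at the median. With the filter at the median 13 probe sets did not overlap, against 20, since fewer were tested. Col18a1 (101880_at) was 0.01 on the deposited scale and Adam5 was −0.04 with median centring. The cause of these sign changes was not tested.

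Leaving out 1 array at a time gave medians of 0.20 to 0.81 for fibrillar collagens, −0.07 to 0.38 for other collagens, −0.03 to 0.64 for glycoproteins and proteoglycans, 0.21 to 1.11 for Timp, −0.28 to 0.07 for Adam and −0.14 to 0.27 for collagen processing genes. The count of probe sets whose groups do not overlap was 41 to 53, which fewer arrays raise by construction. Of the 49 differences named by rule, 11 changed sign without J 1a, 6 without J 1c, 10 without NJ 1a and 3 without NJ 1d. Among fibrillar collagens the ranges that cross 0 were −0.23 to 1.61 for Col1a1 (94305_at), −1.08 to 0.57 for Col3a1 (98331_at), and −0.81 to 1.29 and −0.45 to 0.32 for Col5a1 (101080_at and 93472_at). For other collagen chains they were −0.58 to 0.42 for Col18a1 (101880_at), −2.66 to 0.27 for Col4a5, −1.13 to 0.41 for Col12a1 (92313_at), −1.09 to 2.21 for Col6a1 (162459_f_at) and −0.29 to 0.49 for Col6a2. For glycoproteins and proteoglycans they were −0.31 to 0.12 and −0.95 to 0.30 for Bgn (162347_f_at and 96049_at), −0.36 to 1.03 for Fbln2, −0.05 to 0.78 for Fn1, −0.38 to 0.05 for Lum and −0.16 to 0.52 for Sparc. For proteases and inhibitors they were −0.21 to 0.96 for Mmp11, −1.21 to 0.64 for Mmp12 (95338_s_at), −0.15 to 1.78 for Mmp17, −0.33 to 0.38 and −0.17 to 1.85 for Timp2 (160116_at and 93507_at) and −0.27 to 0.01 for Adam3. Precision was limited by 2 arrays a group and by signals of many Mmp and Adam genes near the dim end, and no member passed after adjustment, differences of several standard errors included.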
